A study of Mus musculus with 14 samples.

Results

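Animal genomes keep the miRNAs let-7, miR-99/100 and miR-125 side by side, and the mouse carries 3 such clusters, on chromosomes 17, 16 and 9. Described here are the 9 hairpins of these clusters, chosen by name from the 539 hairpins of the authors' deposited table; each of the 9 has a row. The material was small RNA of exosomes, the small vesicles that cells secrete, from macrophages of the adipose tissue of C57BL/6 mice, which the series describes as CD11b+F4/80+. These adipose tissue macrophages (ATMs) were cultured for 72 h with 10% exosome-free serum before ultracentrifugation of the medium. Exosomes of obese ATMs gave 7 libraries and those of lean ATMs 7, and the labels name no diet, genotype or transgene for either group. The age label begins at 24 weeks in every library and ends between 26 and 32 weeks in the obese group and between 33 and 39 weeks in the lean one. This upper end rises by 1 week per library in the order listed, without a break between the groups, and whether it gives true ages is not known here. If those labels hold, age and obesity cannot be told apart. No label says whether libraries came from separate animals, so p-values measure the spread between these libraries, which may be technical.

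Each row gives a log2 fold change between obese and lean, a mean log2 expression over all libraries, and p-values; values of single libraries and of each group were not analysed here. Library depth and the separate spread of each group are therefore unknown. Which group stands in the numerator is not written in the table. Published work on such exosomes, known from outside these data, describes more miR-155 from obese ATMs. The row of mir-155 is positive, at 4.41 in the authors' deposited table, so a positive value below means the side of mir-155. A hairpin is called when its adjusted p is under 0.05.

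All 3 families act as short guides that lead Argonaute proteins to matching mRNAs, chiefly through bases 2 to 8, the seed. The let-7 miRNAs are known for holding back growth and embryonic genes such as Hmga2 and Lin28, and the protein LIN28 in turn blocks the maturation of let-7 precursors. The miR-99/100 family is known to act on mTOR and the IGF-1 receptor. The miR-125 family, related to lin-4 of the nematode, is known for roles in blood stem cells and in macrophage activation. Members of 1 cluster can be cut from 1 primary transcript, after which each hairpin is processed and degraded on its own.

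The main mature forms, the 5p arms, are printed because their likeness decides which rows can be told apart. The letters are RefSeq's on GRCm38.p6, 5′ to 3′, with the seed in capitals. All 9 rows matched a mature entry, and 7 of the hairpins, all but mir-99b and mir-125b-2, also had a hairpin sequence there.

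mmu-mir-99b, chromosome 17: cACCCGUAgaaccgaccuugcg
mmu-mir-99a, chromosome 16: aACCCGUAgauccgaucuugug
mmu-mir-100, chromosome 9: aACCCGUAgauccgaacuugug
mmu-let-7e, chromosome 17: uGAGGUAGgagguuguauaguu
mmu-let-7c-1, chromosome 16: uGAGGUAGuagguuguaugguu
mmu-let-7a-2, chromosome 9: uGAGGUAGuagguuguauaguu
mmu-mir-125a, chromosome 17: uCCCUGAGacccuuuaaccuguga
mmu-mir-125b-2, chromosome 16: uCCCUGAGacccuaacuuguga
mmu-mir-125b-1, chromosome 9: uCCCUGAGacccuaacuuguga

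Each family has 1 seed in all 3 clusters: ACCCGUA for miR-99/100, GAGGUAG for let-7 and CCCUGAG for miR-125. Outside the seed the families differ in how far their members have drifted apart. Counting positions from 1 at the 5′ end, miR-99a-5p and miR-100-5p differ by U16A alone, and miR-99b-5p differs from miR-99a-5p by C1A, A11U, C16U and C21U. Between let-7e-5p and let-7a-5p the 1 difference is G9U, and between let-7c-5p and let-7a-5p it is G19A. The mature miR-125b-5p is the same from chromosomes 16 and 9, while miR-125a-5p is 24 bases long against 22 and shares its first 13 bases with miR-125b-5p. The 9 hairpins thus give 8 distinct main mature sequences.

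Copies outside the clusters add to this overlap. The 5p arm of let-7a-2 also comes from let-7a-1 on chromosome 13, and that of let-7c-1 from let-7c-2 on chromosome 15. In GENCODE M21, let-7c-1, let-7a-2, mir-125b-1 and mir-125b-2 share a stretch of 20 bases with at least 1 other miRNA gene, and the hairpins let-7e, mir-125a, mir-99a and mir-100 with none. For mir-99b, whose mature arms alone could be searched, no other miRNA gene matched either (mir-125b-2 was searched in the same way). A stretch of 20 bases is also shared with 1 gene that is not a miRNA by mir-125a (Spaca6, its host), let-7c-1 (Lncppara), let-7a-2 (6720427I07Rik) and both miR-125b hairpins (Gm28119). Every chromosome 17 row therefore has a mature sequence of its own, whereas the chromosome 16 and 9 clusters have this for mir-99a and mir-100 only. The rule by which the authors assigned reads that fit several hairpins is not known here, so the let-7 and miR-125b rows of chromosomes 16 and 9 need not measure their own locus. Nor is it known whether mismatches were allowed. If they were, the let-7e row could hold reads of let-7a, 1 base apart in the 5p arm. The same holds between mir-99a and mir-100, also 1 base apart, and neither was tested.

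In each cluster the order on the plus strand of GRCm38 is miR-99/100, let-7, miR-125 (GENCODE M21). The chromosome 17 cluster is compact, with its 3 hairpins inside 692 bases: mir-99b at chr17:17830188-17830257, let-7e at chr17:17830352-17830444 and mir-125a at chr17:17830812-17830879. It lies in Spaca6, a gene of sperm and egg fusion, with mir-99b and let-7e in an intron and mir-125a in an exon outside the annotated coding sequence. The chromosome 16 cluster spans 47408 bases in introns of the noncoding Mir99ahg: mir-99a (chr16:77598936-77599000) and let-7c-1 (chr16:77599657-77599750) are 656 bases apart, and mir-125b-2 (chr16:77646273-77646343) follows after 46522 bases. On chromosome 9 the cluster spans 50578 bases in introns of the noncoding 3110039I08Rik, RefSeq's Mir100hg, with mir-100 (chr9:41531425-41531504), let-7a-2 (chr9:41536716-41536811) and mir-125b-1 (chr9:41581926-41582002). Annotated genes run opposite to let-7e (Gm25927), to mir-99a and let-7c-1 (Gm11146) and to mir-100 (Gm48742), and mir-125b-1 lies in an exon of the sense transcript Gm28119. It is not known here whether strand was used in counting, so reads of opposite genes cannot be told apart from those 4 hairpins.

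**Figure D1:**
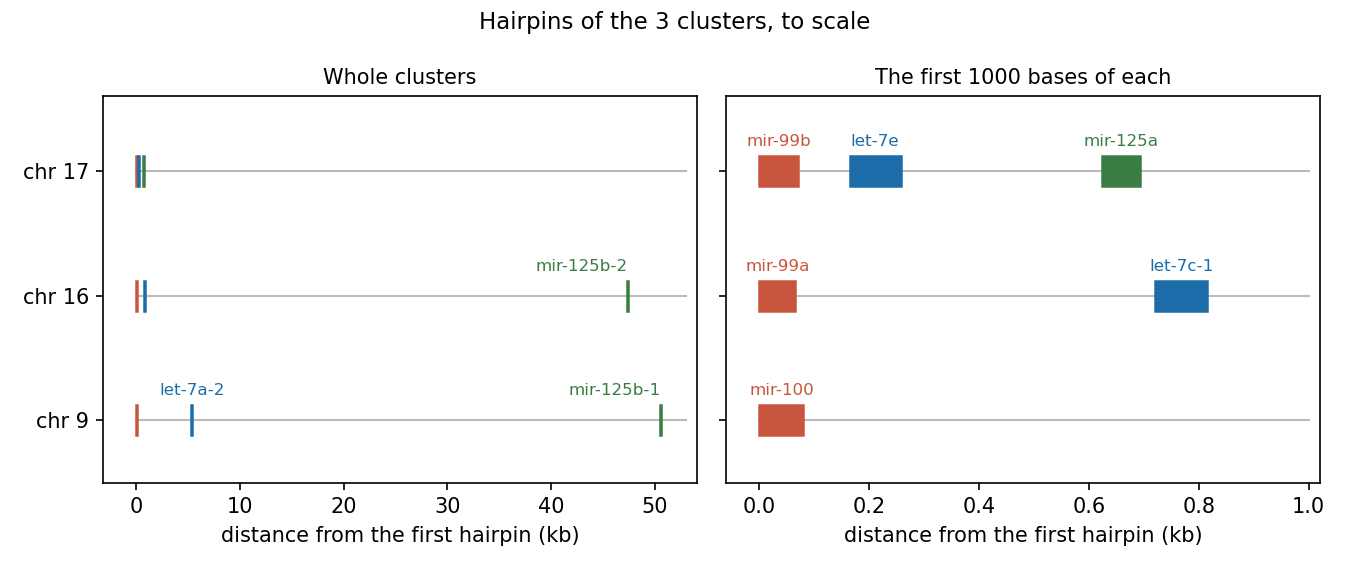
Positions of the 9 hairpins along chromosomes 17, 16 and 9 as distance from the first hairpin in kb, for whole clusters (left) and the first 1000 bases (right); box widths are hairpin lengths, red is miR-99/100, blue let-7 and green miR-125. The chromosome 17 cluster takes up 692 bases, while the miR-125b hairpins of the other clusters lie 46522 and 45114 bases from their let-7 neighbours.

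The 3 let-7 precursors are printed whole because they carry the letters GGAG, which LIN28 is known to bind, between their arms. Capitals mark GGAG there, on the hairpin's own strand, in RefSeq's GRCm38.p6 sequences.

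let-7e precursor: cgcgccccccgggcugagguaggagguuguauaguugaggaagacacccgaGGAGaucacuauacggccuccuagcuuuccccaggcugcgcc
let-7c-1 precursor: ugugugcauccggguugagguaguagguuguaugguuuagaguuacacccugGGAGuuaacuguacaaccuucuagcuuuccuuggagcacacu
let-7a-2 precursor: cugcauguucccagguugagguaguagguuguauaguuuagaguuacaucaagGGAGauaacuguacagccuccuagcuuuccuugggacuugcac

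In all 3 precursors GGAG ends 4 bases before the 3p arm, and the stretch between the arms is 23 bases long. Of 12 let-7 and mir-98 hairpins with both arms placed, 9 hold GGAG there; let-7b, let-7c-2 and mir-98 do not. Among all 645 RefSeq hairpins with both arms placed, 8.22% hold it. The search covered the stretch between the arms, which differs in length from hairpin to hairpin, and the miR-99a, miR-100, miR-125a and miR-125b-1 hairpins had no match in theirs. A match is a description of the letters, and LIN28 itself was not measured.

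These miRNAs were abundant exosome cargo, and mir-100 was the least abundant of the 9. Ordered by mean log2 expression, the members of the authors' deposited table ran from let-7c-1 at 14.04, through mir-99b at 12.69, mir-125a at 11.87 and let-7a-2 at 11.57, to mir-99a at 11.23. Lower in the authors' deposited table came mir-125b-2 at 10.91, mir-125b-1 at 10.18, let-7e at 9.41 and mir-100 at 6.81. The table's median is 2.34, so every member lay above it. By this mean let-7c-1 ranked 8th of 539 and mir-100 ranked 140th. Since the rows share libraries and no value per library is known, it cannot be said which neighbours in this order differ. Whether the values are scaled by length is not known here, and the mature forms are 22 or 24 bases long.

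Levels within each cluster spanned several log2 units, although some members lay close. On chromosome 17, mir-99b stood 3.28 log2 units above let-7e in mean expression (9.70-fold), although the hairpins are 94 bases apart. On chromosome 16, let-7c-1 stood 3.14 above mir-125b-2, and on chromosome 9, let-7a-2 stood 4.76 above mir-100. These are the widest gaps of each cluster, and the last 2 involve a let-7 row whose 5p arm is shared with a copy elsewhere. The smallest gap was between mir-99a and mir-125b-2 on chromosome 16, 0.32 log2 units (1.25-fold), and mir-99b and mir-125a on chromosome 17 were 0.82 apart (1.76-fold). Between the near-identical miR-99a and miR-100, the level of mir-99a was 4.42 log2 units higher (21.4-fold).

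Rows that share a mature sequence behaved in different ways. The levels of let-7c-1 and let-7c-2 were 14.04 and 14.02 in the authors' deposited table, and those of let-7a-2 and let-7a-1 were 11.57 and 11.59. Close too, in the authors' deposited table, were the log2 fold changes, at 0.93 and 0.99 for the let-7c pair and at 0.74 for both let-7a rows. The hairpins of each pair have a longest shared stretch of 23 bases, the mature sequence with 1 base more. The miR-125b rows, with the same 5p arm, had fold changes of 0.45 and 0.42 in the authors' deposited table, but the level of mir-125b-2 was 0.73 log2 units above that of mir-125b-1 (1.66-fold). Whether the rows of a pair count the same reads was not tested.

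The comparison asks whether exosomes of obese and lean ATMs differ in these miRNAs. No member was called (0 of 9; limma's moderated test with Benjamini-Hochberg adjustment in the authors' deposited table), where 5.57% of all 539 hairpins were. At an unadjusted p under 0.05 the members numbered 3, the whole chromosome 17 cluster and no member of the others; the background is 17.6% of all hairpins in either direction and 8.53% on the positive side. The fold changes of all 9 were positive, from 0.42 to 1.79 in the authors' deposited table, with a median of 0.93. Among all hairpins 52.7% were positive and the median was 0.09.

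Abundant hairpins leaned to the positive side as a whole. Of the other 124 hairpins with a mean log2 expression in the members' range, 71.8% were positive, their median was 0.38, and 25 had a positive change with an unadjusted p under 0.05. After subtraction of that median all 9 members remained positive, from 0.04 for mir-125b-1 to 1.41 for mir-99b. The chromosome 9 and 16 members ended between 0.04 and 0.67, and of the chromosome 17 members only mir-99b still had an unadjusted p under 0.05 (0.0359, adjusted p = 0.225, limma's errors).

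**Figure D2:**
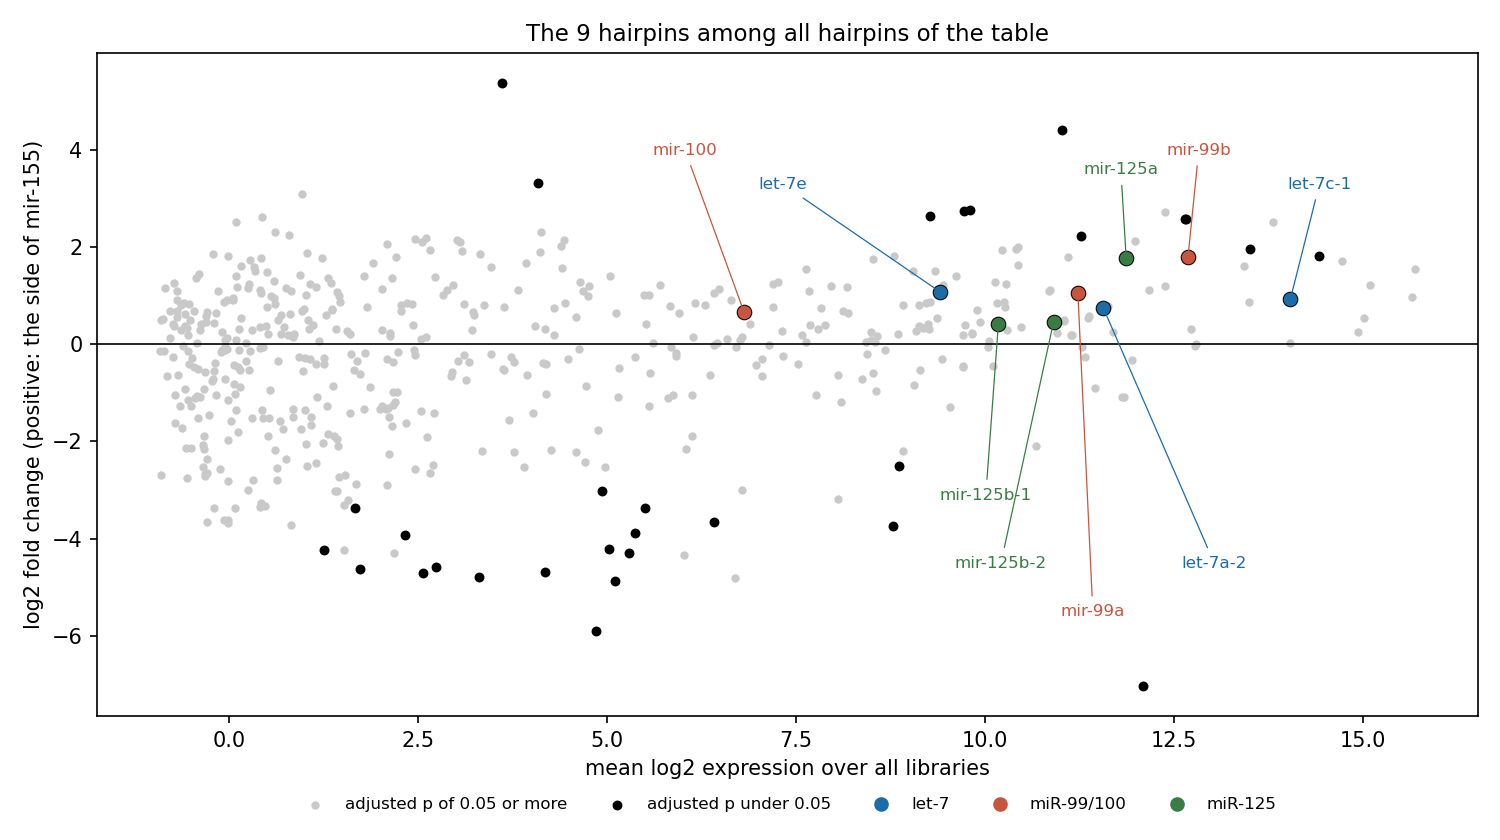
Log2 fold change against mean log2 expression over all libraries for the 539 hairpins of the authors' deposited table; black points have an adjusted p under 0.05, grey points do not, and the 9 members are coloured by family. The members lie between 6.81 and 14.04 in mean expression, all above 0 and none among the black points.

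The chromosome 17 cluster had the largest values. For mir-99b the authors' deposited table gives a log2 fold change of 1.79 (3.47-fold), an unadjusted p of 0.0100 and a limma adjusted p of 0.115. Its standard error, the fold change divided by t, was 0.62, which gives a 95% interval from 0.48 to 3.10. Its neighbour mir-125a was nearly equal at 1.77 (3.40-fold; unadjusted p = 0.0481, limma adjusted p = 0.276), per the authors' deposited table, with a wider interval from 0.02 to 3.52. Between them on the chromosome, let-7e was at 1.07 (2.10-fold; unadjusted p = 0.0293, limma adjusted p = 0.202), per the authors' deposited table, with an interval from 0.12 to 2.02. So the lower bounds of all 3 lay above 0, that of mir-125a by 0.02, but by rank of p these rows were 47th, 94th and 78th of 539, and none passed the adjustment.

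On chromosome 16 no interval excluded 0. The value of mir-99a was 1.05 (interval −0.40 to 2.50; limma adjusted p = 0.465), per the authors' deposited table. The most abundant member, let-7c-1, was at 0.93 (interval −0.28 to 2.14; limma adjusted p = 0.416), per the authors' deposited table. The hairpin mir-125b-2 was at 0.45 (interval −0.47 to 1.37; limma adjusted p = 0.630), per the authors' deposited table, and had the smallest standard error of the 9, 0.44. A difference of more than 2.59-fold on the positive side lies outside that interval.

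The chromosome 9 cluster held the smallest value and the least certain one. In the authors' deposited table let-7a-2 was at 0.74 (interval −0.37 to 1.84; limma adjusted p = 0.499) and mir-125b-1 at 0.42 (interval −0.81 to 1.65; limma adjusted p = 0.760). The least abundant member, mir-100, was at 0.65 in the authors' deposited table (limma adjusted p = 0.839). Its standard error of 1.11 leaves an interval from −1.67 to 2.98, which in linear terms is a ratio from 0.31 to 7.88.

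**Figure D3:**
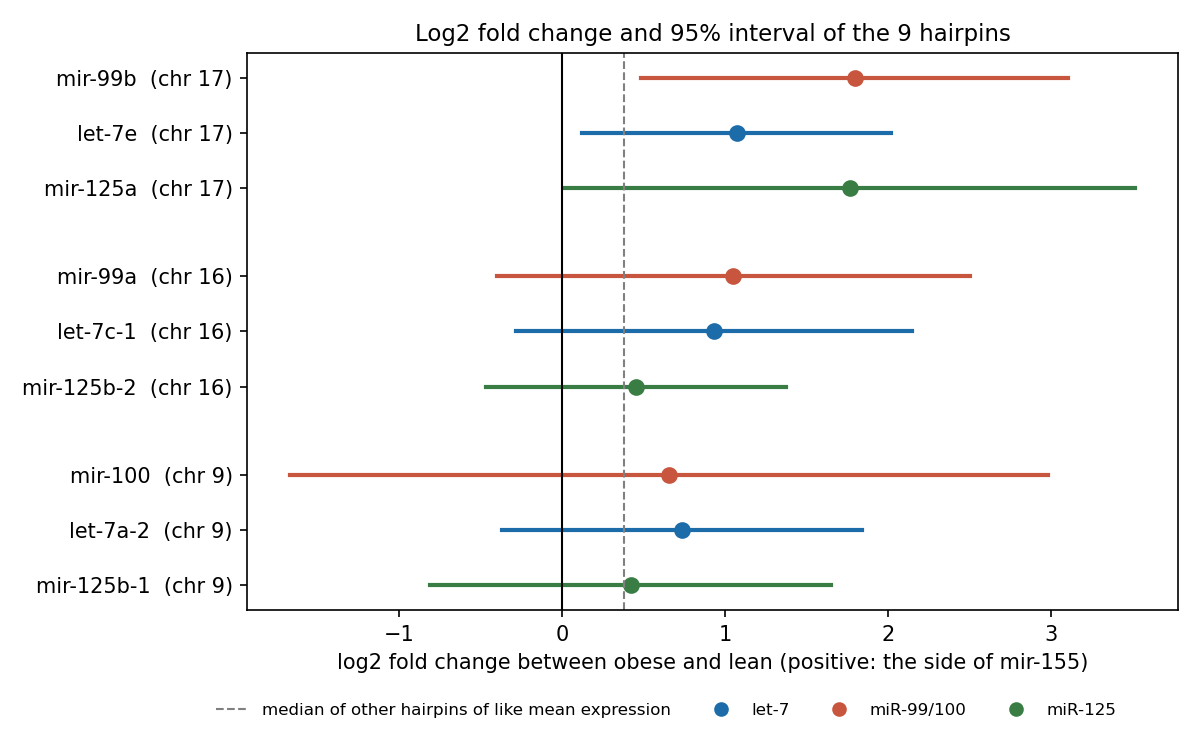
Log2 fold change of each of the 9 hairpins (point) with its 95% interval (line), by cluster and coloured by family; the dashed line at 0.38 is the median of the other 124 hairpins of like mean expression. Intervals of the 3 chromosome 17 hairpins lie above 0, mir-125a from 0.02, and the other 6 cross it.

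Read by family, the chromosome 17 member had the largest fold change of its 3 in each. Among miR-99/100 the values were 1.79 for mir-99b, 1.05 for mir-99a and 0.65 for mir-100 in the authors' deposited table. Among let-7 they were 1.07 for let-7e, 0.93 for let-7c-1 and 0.74 for let-7a-2 in the authors' deposited table. Among miR-125 they were 1.77 for mir-125a against 0.45 and 0.42 for the miR-125b hairpins in the authors' deposited table. The let-7 values thus lay close together and the miR-125 values furthest apart.

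No difference between members stood clear of the largest error it could have. Because the rows share libraries and their covariance is unknown, the error of a difference was bounded by the sum of both standard errors, its largest possible value. With this bound the 95% interval of the difference held 0 for all 36 pairs of members. The true error may be smaller, so the bound cannot show that members do not differ. The widest gap, mir-99b minus mir-125b-1, was 1.37 (interval −1.17 to 3.91), and mir-99b minus mir-125b-2 was 1.34 (−0.89 to 3.57). Within a cluster the largest difference was 0.72, mir-99b minus let-7e (−1.54 to 2.98). That the chromosome 17 cluster differs from the others was therefore not shown, nor that the clusters changed alike.

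The errors also set what could have been called. The smallest absolute t with an adjusted p under 0.05 was 3.53. At the members' standard errors a call would have needed a log2 fold change of 1.54 for mir-125b-2, 1.60 for let-7e, 2.20 for mir-99b, 2.94 for mir-125a and 3.91 for mir-100.

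The values of relatives elsewhere in the genome overlapped with those of the clusters. The let-7 family, let-7 and mir-98, had 13 of its 14 listed hairpins in the table, 12 of them positive, with a median of 0.74, but 10 were positive, and let-7b and mir-98 below 0 beside let-7d, after recentring on abundant rows. Recentring subtracts from every fold change the median of a set of rows, here the most abundant 180 (0.34) or the 124 other rows in the clusters' range of expression (0.38), and in another version all rows (0.09). The family's 1 call, over all hairpins, was let-7i on chromosome 10, at 1.95 (interval 0.82 to 3.09; limma adjusted p = 0.0383), per the authors' deposited table. Each recentring ended that call, with let-7i between 1.57 and 1.86 and its adjusted p, from the deposited t shifted and adjusted over all rows, between 0.0512 and 0.101. The let-7i-5p sequence differs from let-7e-5p at 5 positions. Of the 10 let-7 rows outside the clusters 9 were positive (7 after recentring on either set of abundant rows), from 0.18 for mir-98 to let-7i, and let-7d was at −0.33 (limma adjusted p = 0.850), per the authors' deposited table. The value of let-7e ranked 4th of the 13, behind let-7i, let-7j and let-7g. Of these, let-7j is listed by name alone, since no RefSeq mature form of it with the seed GAGGUAG and no position was found. In the authors' deposited table let-7j was at 1.40 (interval 0.09 to 2.71; unadjusted p = 0.0372, limma adjusted p = 0.245) and let-7g at 1.28 (interval 0.15 to 2.42; unadjusted p = 0.0287, limma adjusted p = 0.201). An unadjusted p under 0.05 on the positive side was therefore not limited to the chromosome 17 cluster: 3 of the 10 let-7 rows outside the clusters (30%), let-7j among them, had one.

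For miR-100 the nearest relatives beyond miR-99 are mir-10a and mir-10b, hairpins of the Hox clusters with a shifted seed. Log2 fold changes were 0.96 (limma adjusted p = 0.621) and 0.45 (limma adjusted p = 0.899), per the authors' deposited table, so all 5 of miR-10 and miR-99/100 were positive and none was called. By mean log2 expression mir-10a stood 2nd of 539, at 15.65 in the authors' deposited table, a gap of 8.83 log2 units to mir-100. The miR-125 seed recurs in mir-351, an X-linked hairpin, which was at 1.24 (unadjusted p = 0.0638, limma adjusted p = 0.307), per the authors' deposited table. It thus lay between mir-125a and the miR-125b rows, and the 4 hairpins with this seed in the table were all positive, none called.

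**Figure D4:**
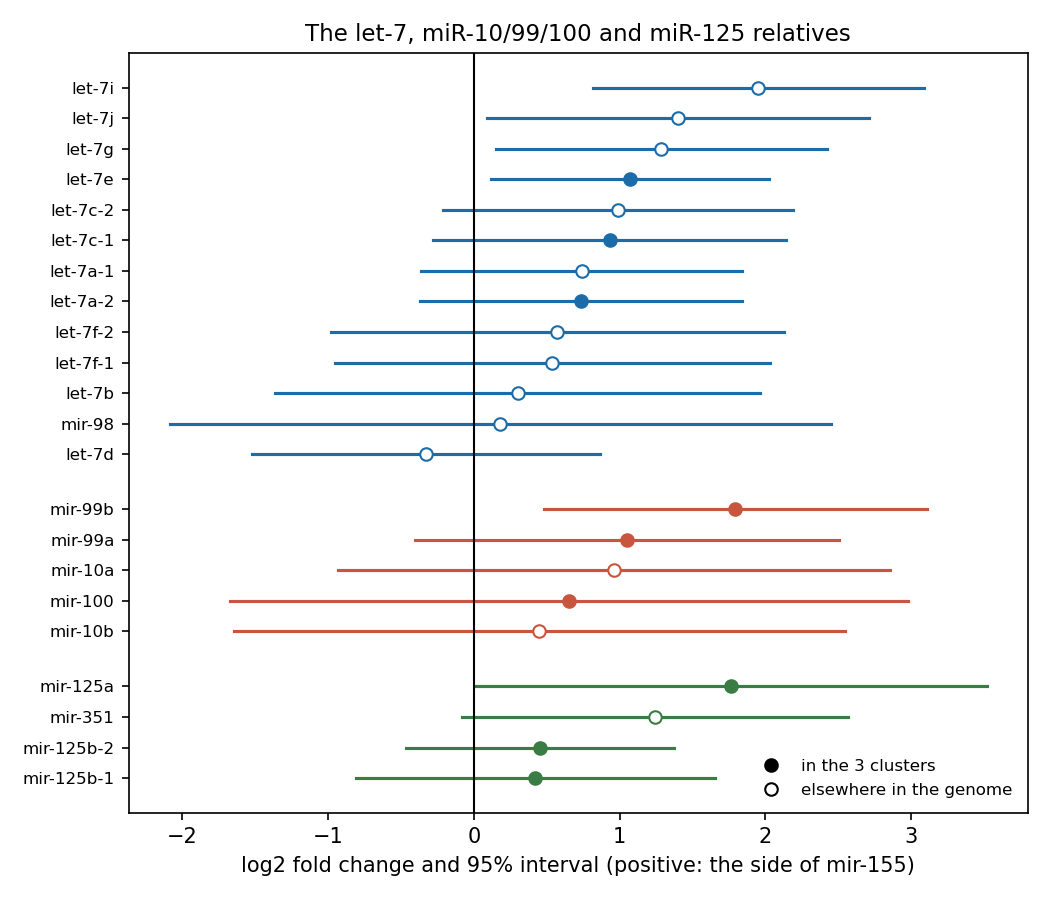
Log2 fold change (point) and 95% interval (line) of the let-7 (blue), miR-10/99/100 (red) and miR-125 (green) hairpins in the table; filled points belong to the 3 clusters and open points lie elsewhere. Of these 22 hairpins let-7d alone is below 0, joined by let-7b and mir-98 after recentring on abundant rows, and let-7i alone is called, with no call after any recentring.

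Markers of the sorted cells were present. All 7 macrophage and leukocyte hairpins listed had a row, and mean log2 expression ran from 4.17 for mir-511 to 14.94 for mir-21a, per the authors' deposited table. Their fold changes went both ways, 4 positive and 3 negative, and 2 were called in the authors' deposited table: mir-155, which sets the sign here, at 4.41 (limma adjusted p = 0.00205) and mir-511 at −4.70 (limma adjusted p = 0.0148). Among the rest, mir-146a was at 2.11 (unadjusted p = 0.0244, limma adjusted p = 0.183), mir-223 at 1.54, mir-21a at 0.24 and both mir-142a and mir-142b at −0.46 in the authors' deposited table. There mir-142a and mir-142b also had near-equal mean log2 expression, 9.70 and 9.71. Whether these rows, or those of mir-486a and mir-486b below, count the same reads was not tested. Stromal cells, which are known to be rich in miR-99a, miR-100, miR-125b and let-7c, were represented by 6 of 7 listed hairpins, from 0.22 for mir-145a to 6.59 for mir-199a-1 in mean log2 expression. Their log2 fold changes ran from −1.33 to 1.21 in the authors' deposited table with a median of 0.13, and none had an unadjusted p under 0.05. The endothelial mir-126a and mir-126b had mean log2 expression of 6.46 and 5.91 and fold changes of 0.01 and −0.18 in the authors' deposited table. Of the erythroid hairpins, mir-486a and mir-486b were as abundant as the clusters' members, at 11.81 and 11.84, with fold changes of −1.09 and −1.08, whereas mir-451a, at a mean log2 expression of 6.76, was at 0.09 and mir-144, at 4.15, at −0.39 in the authors' deposited table. The lymphocyte mir-150 (mean log2 expression 3.24) was at 0.59 and the liver and serum mir-122 (2.15) at 1.36 in the authors' deposited table. None of these 6 had an unadjusted p under 0.05. The part of such cells in the members' values was not tested, and in such bulk samples fewer vesicles from a cell type and less miRNA per vesicle cannot be told apart.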

How the data were processed

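Small RNA of ATM exosomes was compared between 7 obese and 7 lean libraries. Tools in the submitters' processing notes are limma, edgeR, Novoalign, Trimmomatic 0.30, MultiQC and FastQC, with no role stated. Not given in the sources used here: build, miRNA annotation, filters, normalization, and the handling of reads with several matches, any of which could move a row. Fold changes and mean expression were deposited by the authors and are read here as log2 values, since the column names give no base. The deposited t is a score, and the column names tell unadjusted from adjusted p-values. The Benjamini-Hochberg adjustment over 539 rows was recomputed and gave the deposited adjusted p-values. The deposited B is read as a natural log of odds, which the column names do not state. The table holds 0 columns of values per library, so depth is unknown and no model was refitted.

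Total degrees of freedom of 17.9 were recovered from t and p, the standard error is the ratio of fold change to t, and intervals use both. In 239 of 538 steps to the next larger absolute t, B fell, which equal weights for all rows would not give. Group means were therefore not derived from the table. Members, lists and the rule for named hairpins (the 9, their let-7, seed and miR-10 relatives, mir-155 for the sign, and cell markers) were chosen with earlier results of these data known. Sequences came from RefSeq (GRCm38.p6) and positions from GENCODE M21 (GRCm38). Python 3.11.15, pandas 2.3.3 and scipy 1.17.1 were used, and the code was tested on simulated data. Alternatives were other thresholds, scalings, filters and copies.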

Additional observations from a re-analysis of the deposited data

How the results depend on the processing

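The count of 0 called members held with an adjusted p under 0.1, with 1 row per stem (508 rows, where let-7a-2 and mir-125b-1 gave way to a more abundant copy and 0 of the 7 members left was called), with the 231 rows above a mean log2 expression of 3.32, and after recentring on the median of the most abundant 180 rows (0.34), of all rows (0.09) or of the 124 other rows in the members' range (0.38). The smallest adjusted p among members, that of mir-99b, was 0.0644 above the expression minimum and between 0.119 and 0.227 in the stem and recentring settings. The fold change of every member kept its positive sign under each recentring and, where a copy exists, in the copy's row. The copy's row is no separate check, since it may count the same reads, and for each miR-125b member it is the other member. The 3 members with an unadjusted p under 0.05 became 1 after recentring on the most abundant rows, 1 on the rows in the members' range and 2 on all rows. Each recentring subtracts a positive median and so lowers every member's value. Whether the lean it removes is one of scaling was not tested. Chosen after seeing the data were the expression-matched recentring, the recentring on all rows for both counts (not that for the fold changes) and all settings for the unadjusted count. Leaving out libraries was not run, and depth per library is unknown. No paired analysis was possible because single libraries have no values here.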
